A study of Mus musculus with 33 samples.

Results

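Glutamate receptors and the scaffold proteins of the postsynaptic density were followed as a set of 36 genes in bulk RNA sequencing of the mouse nucleus accumbens. The genes were taken by symbol from a list of receptor subunits and scaffolds, and all 36 were found among the 24061 gene entries of the count table. They comprised 16 ionotropic receptor subunits, 6 metabotropic receptors and 14 scaffold and kinase genes. The rule for membership uses names and no threshold on a measured value. All 36 passed the filter on low counts, which left 14607 genes for testing.

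The study asked how the absence of a microbiome changes gene expression in the accumbens and its response to repeated morphine. All 33 mice were C57BL/6J, and the groups differed in microbiome and in injection. H2O mice were raised conventionally and drank water, Abx mice were raised the same way and drank vancomycin (0.5 mg/mL), bacitracin (0.5 mg/mL), neomycin (2 mg/mL) and the antifungal pimaricin (1.2 µg/mL), and GF mice were germ-free. Injections were of saline, or of morphine at 20 mg/kg per day for 7 days. There were 6 mice in each of the H2O saline, Abx saline and GF saline groups and 5 in each of the H2O morphine, Abx morphine and GF morphine groups. Conventional mice were 7 to 9 weeks old, were bought in, and had their drink for 2 weeks before the injections and throughout them. GF mice were matched to them in age but were bred in isolators at the institution and ate sterilised food, so microbiome status and breeding source cannot be told apart. Conventional mice were those of an earlier publication. The labels give no cage, batch or sequencing date for a mouse, and whether the samples of a group came from separate cages is not given, so p-values measure the spread between these libraries.

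Glutamate released by cortical, thalamic, hippocampal and amygdalar axons drives the GABAergic medium spiny neurons that make up most of the nucleus accumbens. AMPA receptors carry fast current, NMDA receptors admit calcium when glutamate and depolarisation coincide, kainate receptors act on both sides of the synapse, and metabotropic receptors signal through G proteins. PSD-95 and its relatives anchor receptors to DLGAP, SHANK and HOMER proteins beneath the membrane, and the calcium/calmodulin-dependent kinase CaMKII is the most abundant enzyme there. In the accumbens these proteins are known for their part in plasticity after repeated exposure to drugs of abuse.

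The 36 genes took 0.708% to 1.07% of the reads counted to genes, of which each library had 4.87 to 15.3 M (M is 1e6 reads). GF libraries were shallower, at 4.87 to 8.13 M against 9.36 to 15.3 M in conventional mice, except GF saline replicate 1, which had 15.3 M, so depth and germ-free status are nearly confounded. Ppp1r1b, which encodes DARPP-32 and marks medium spiny neurons, was at 490.1 to 1469 CPM (counts per 1e6 reads, scaled by TMM factors) in all libraries of the saline groups. The 11 medium spiny neuron markers together ranged from 2408 CPM, in GF saline replicate 5, to 7482 CPM. The 8 markers of cortical-type glutamatergic neurons varied far more, since their summed level was 13.4 to 704 CPM in H2O saline, 92.0 to 1548 in Abx saline, 9.19 to 1224 in H2O morphine and 160 to 1008 in Abx morphine. In GF saline it was 9.47 to 369 CPM with a median of 15.5, the 369 being replicate 1, and in GF morphine 9.45 to 13.5. In GF saline, replicates 1 and 5 stood apart in depth or in these sums. Replicate 4 also differed, with a cortical sum of 85.1 CPM and the lowest sums of the oligodendrocyte (3559 CPM) and endothelial (89.9 CPM) markers in its group.

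Levels of different genes were compared after division by the length of the longest coding transcript, as CPM per kb. The kinase genes Camk2a (356 CPM per kb, mean of 33 libraries) and Camk2b (325) were highest, followed by Dlg4 (143), which encodes PSD-95. Among receptors the AMPA subunit Gria1 was highest at 124 CPM per kb, ahead of the kainate subunit Grik5 (85.4), the obligatory NMDA subunit Grin1 (74.3) and the AMPA subunit Gria2 (56.0). The AMPA subunits followed the order Gria1, Gria2, Gria3 (36.3) and Gria4 (13.4). Of the glutamate-binding NMDA subunits, Grin2c was at 12.3 CPM per kb, Grin2d at 4.21, Grin2b at 3.45 and Grin2a at 1.23, the lowest of the 36 genes. Grin2b and Grin2a have the longest transcripts of the set, at 24060 and 14634 bases, so these levels depend most on the length assigned. Among metabotropic receptors Grm5 (36.1 CPM per kb) and Grm3 (31.2) led, and Grm2 (1.41) and Grm8 (1.77) were lowest. Group means differed least for Gria1, whose highest group mean was 1.11 times its lowest, and most for Grin2b, at 2.12 times.

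**Figure D1:**
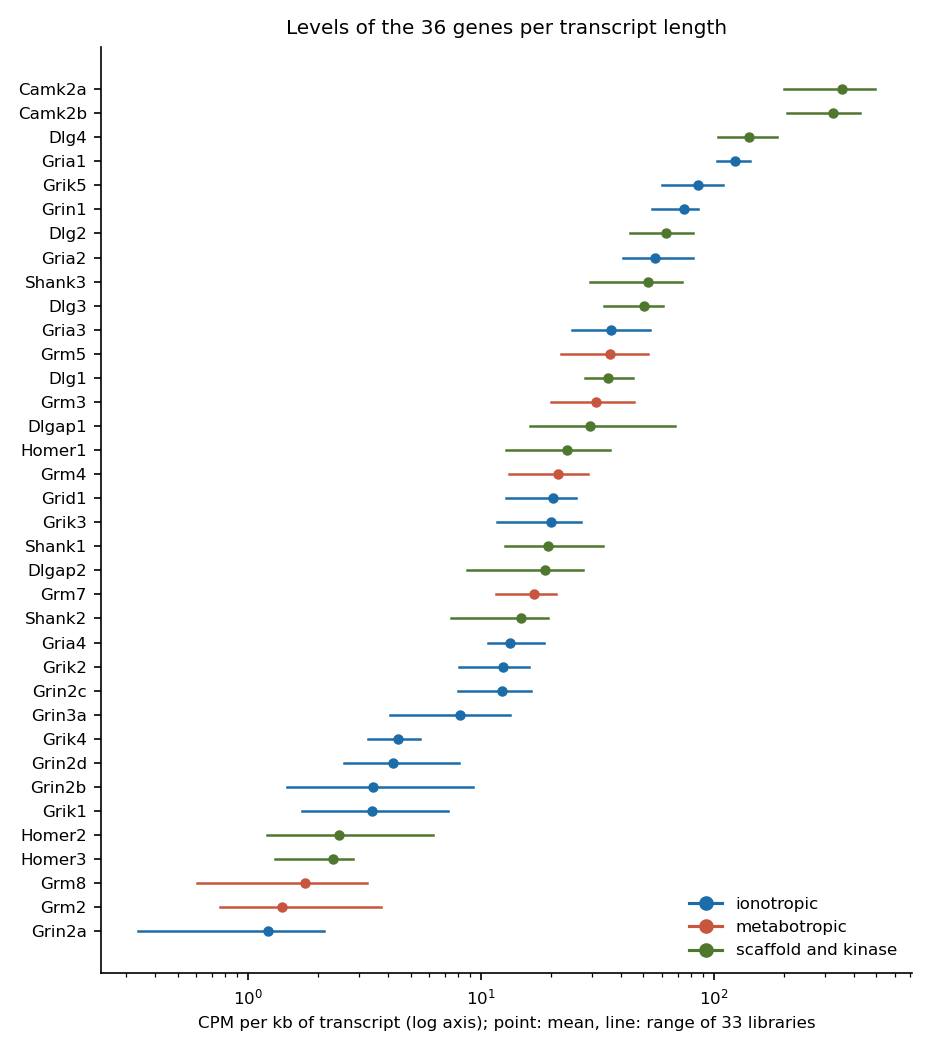
Level of each of the 36 genes in CPM per kb of transcript on a log axis, as the mean (point) and range (line) of all 33 libraries, coloured by class. Camk2a and Camk2b lie highest at 356 and 325, and Grin2a lowest at 1.23.

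Germ-free status was first examined in saline mice, GF against H2O. Of the 36 genes, 10 passed the test (edgeR quasi-likelihood test, Benjamini-Hochberg adjusted p under 0.05 over all genes tested), which is 27.8%, beside 32.9% of all 14607 genes. The share of the 36 genes called was therefore no higher than that of genes in general. Among ionotropic subunits 4 rose, the AMPA subunits Gria2 and Gria4 and the NMDA subunits Grin2b and Grin3a. Another 6 genes fell, namely Grin1, Grin2c, Grik5, Grid1, Dlg4 and Camk2b. By class, 8 of 16 ionotropic genes, 0 of 6 metabotropic genes and 2 of 14 scaffold and kinase genes passed. Calls went both ways in the genome as a whole, with 18% of genes higher and 14.9% lower. Upper-quartile scaling turned the split of all calls from 2636 higher and 2177 lower to 2121 higher and 2848 lower, and that of the 36 genes from 4 and 6 to 4 and 7. In bulk tissue, fewer cells of a type and less RNA per cell cannot be told apart.

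Gria4, an AMPA subunit typical of fast-spiking interneurons, had a lowest, median and highest level of 69.1, 94.2 and 102 CPM in GF saline. The same values were 60.4, 67.0 and 68.1 CPM for H2O saline and 58.4, 60.4 and 66.3 CPM for Abx saline. All 6 GF libraries lay above every H2O and Abx library. The difference from H2O saline was 0.45 ± 0.08 (log2 fold change ± SE, adjusted p = 0.000131, edgeR). Replicate 1 of GF saline was the lowest GF library, at 69.1 CPM against 68.1 for the highest H2O library, and the difference was 0.52 without replicates 1 and 5.

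Gria2, the subunit that makes AMPA receptors impermeable to calcium, ranged over 425, 699 and 845 CPM (lowest, median, highest) in GF saline against 439, 530 and 586 in H2O saline. Of the GF libraries, 4 exceeded every H2O library, while replicate 5 was below them all, so the groups overlapped. Its difference was 0.39 ± 0.11 (adjusted p = 0.0103, edgeR). It was 0.50 without replicates 1 and 5 but turned to -0.19 with an offset for length and GC content, and the call was lost with the replicate block (adjusted p = 0.109, edgeR) and with only the groups compared (0.0550). Gria1 (-0.04) and Gria3 (0.07) did not pass.

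Grin2b, the NMDA subunit that prevails early in development and gives slow currents, had the largest difference. Its lowest, median and highest levels were 61.4, 99.9 and 154 CPM in GF saline against 35.4, 45.1 and 67.8 in H2O saline. Of the 6 GF libraries 4 were above every H2O library, with replicates 2 and 5 inside the H2O range. The difference was 1.09 ± 0.31 (adjusted p = 0.00791, edgeR).

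Grin3a, which forms NMDA receptors with little calcium permeability, stood at 35.5, 80.4 and 100.3 CPM (lowest, median, highest) in GF saline against 30.6, 40.7 and 60.2 in H2O saline. Of the GF libraries, 4 lay above all H2O libraries, and replicates 1 and 4 lay among them. Grin3a rose by 0.75 ± 0.20 (adjusted p = 0.00509, edgeR).

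Grin2c, the NMDA subunit known from cerebellar granule cells and astrocytes, was at 39.0, 49.7 and 57.8 CPM in GF saline against 64.6, 72.9 and 80.6 in H2O saline. Every GF library was below every H2O library. The difference was -0.56 ± 0.10 (adjusted p = 0.000175, edgeR). Gria4 and Grin2c were the 2 of 36 genes whose groups did not overlap in this comparison, which held for 9.52% of all genes.

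Grin1, part of every NMDA receptor, had 269, 288 and 350.2 CPM in GF saline against 330.2, 340.5 and 367 in H2O saline. Of the GF libraries, 5 were below the H2O range, and replicate 1, at 350.2 CPM, was inside it. The difference was small, -0.23 ± 0.07 (adjusted p = 0.0150, edgeR). The other NMDA subunits did not pass, with Grin2a at 0.50 ± 0.25 (adjusted p = 0.118, edgeR) and Grin2d at 0.36 ± 0.19 (adjusted p = 0.146, edgeR).

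Grik5, the high-affinity kainate subunit KA2, was at 226, 269 and 324 CPM in GF saline against 323, 338 and 366 in H2O saline. Only GF replicate 1 reached the lowest H2O library. Its difference was -0.34 ± 0.08 (adjusted p = 0.00155, edgeR). Grid1, the delta receptor GluD1 that links to cerebellins and neurexins, had 98.3, 103 and 121 CPM in GF saline against 114, 124 and 139 in H2O saline, a difference of -0.24 ± 0.08 (adjusted p = 0.0278, edgeR). All GF libraries but replicate 1 were below the H2O range, but the call was lost without any one of H2O saline replicates 4 and 5 and GF saline replicates 3 and 6. The remaining kainate subunits did not pass, and ran from 0.15 (Grik4) to 0.52 (Grik1).

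**Figure D2:**
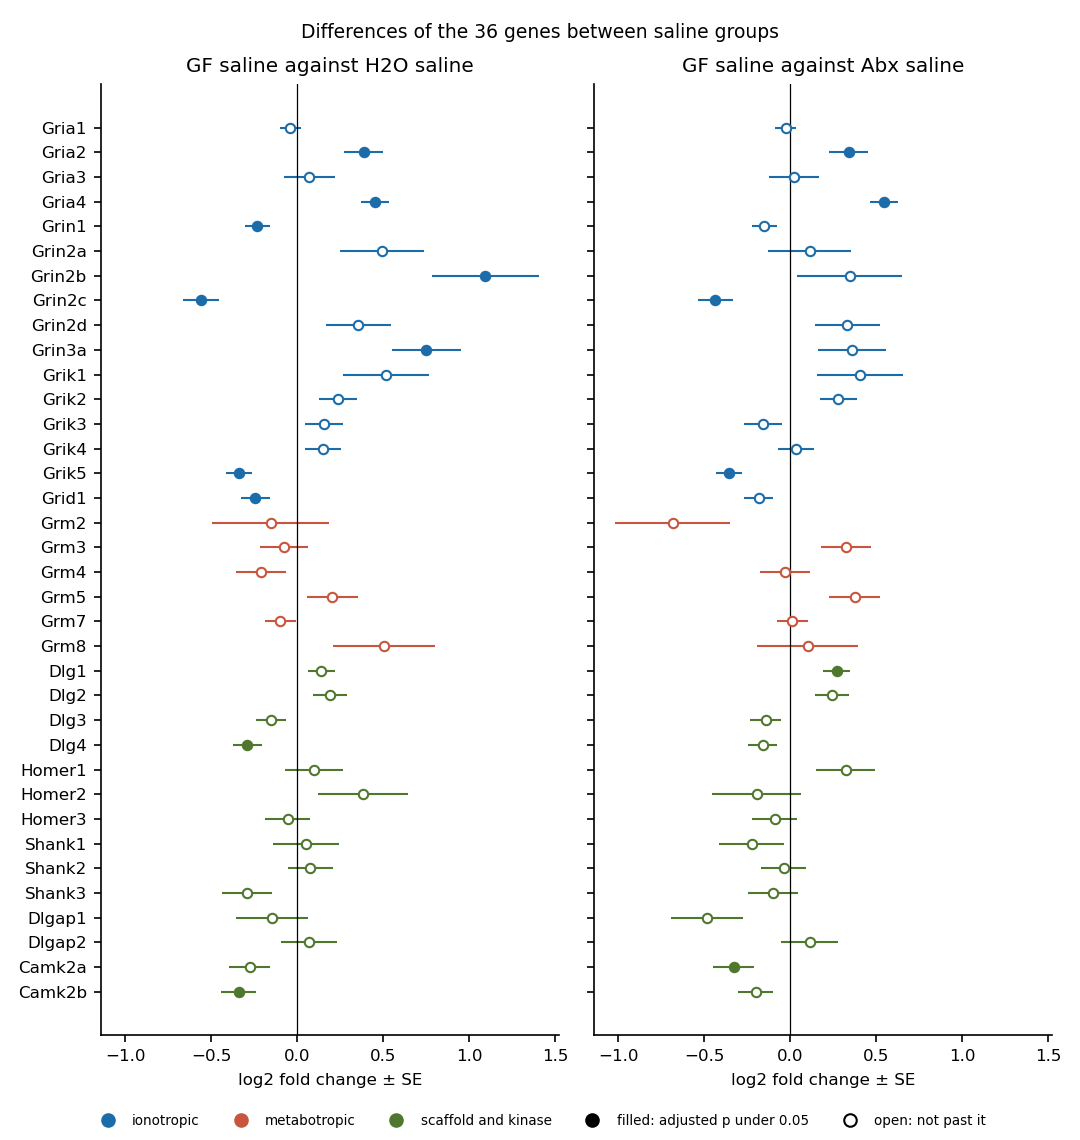
Log2 fold change ± SE of the 36 genes in GF saline against H2O saline (left) and against Abx saline (right), coloured by class, with filled points past an adjusted p of 0.05. Of the 36 points, 10 are filled on the left and 6 on the right, and the 6 metabotropic genes are open in both panels.

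None of the 6 metabotropic receptor genes passed in GF against H2O saline, by edgeR or DESeq2. Beside 6366 of all 14607 genes, none of the 6 had an unadjusted p under 0.05. Their differences ran from -0.21 (Grm4, a group III receptor that lowers transmitter release) to 0.51 (Grm8, of the same group). Grm5, the receptor coupled to calcium release and HOMER proteins, was at 178, 382 and 420.1 CPM in GF saline against 206, 295 and 375 in H2O saline, a difference of 0.20 ± 0.15. The lowest GF value was that of replicate 5, without which Grm5 passed at 0.33 (adjusted p = 0.0398, edgeR).

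Dlg4, encoding PSD-95, had 690.3, 837 and 1023 CPM in GF saline against 943, 1016 and 1178 in H2O saline. Only replicate 1 of the 6 GF libraries reached the H2O range. Dlg4 fell by 0.29 ± 0.09 on the log2 scale (adjusted p = 0.0101, edgeR). Camk2b, the beta subunit of CaMKII, which binds actin, stood at 833, 1198 and 1472 CPM in GF saline against 1356, 1469 and 1706 in H2O saline. The GF libraries other than replicates 1 and 4 lay below every H2O library, for a difference of -0.34 ± 0.10 (adjusted p = 0.0119, edgeR). The alpha subunit Camk2a was at -0.28 ± 0.12 and did not pass (adjusted p = 0.0748, edgeR). The other PSD-95 relatives went in different directions without passing, Dlg1 (SAP97) at 0.14, Dlg2 (PSD-93) at 0.19 and Dlg3 (SAP102) at -0.15. Nor did the 3 HOMER genes (-0.06 to 0.38), the 3 SHANK genes (-0.29 to 0.08), Dlgap1 (-0.15) or Dlgap2 (0.07).

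**Figure D3:**
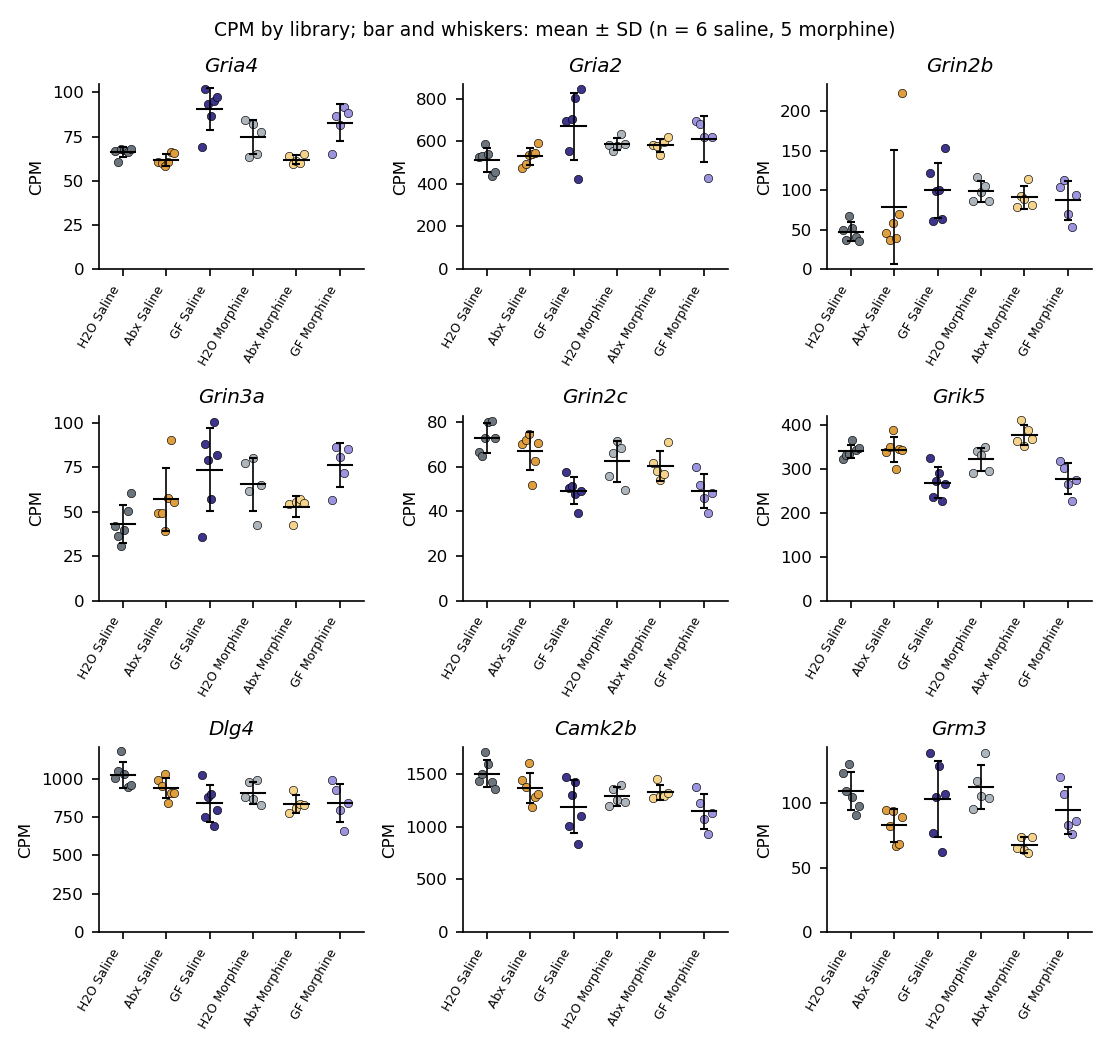
CPM of 9 of the 13 genes called in any comparison, 1 point per library, with the mean and SD of each group (n = 6 for saline, n = 5 for morphine). Gria4 in GF saline lies above every H2O and Abx saline library, Grin2c lies below every H2O saline library, and Grm3 in Abx morphine lies below every H2O morphine library.

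Against Abx saline, the same 6 GF libraries gave 6 of 36 genes past the threshold, or 16.7%, beside 27.4% of all genes (14.6% higher and 12.8% lower). Both comparisons share the GF libraries, so they are not independent of each other. Gria4 rose by 0.55 ± 0.08 (adjusted p = 2.9e-05, edgeR), Gria2 by 0.34 ± 0.11 (0.0261) and Dlg1, whose product traffics AMPA receptors, by 0.27 ± 0.08 (0.00943). Grin2c differed by -0.43 ± 0.10 (adjusted p = 0.00252, edgeR), Grik5 by -0.35 ± 0.08 (0.00138) and Camk2a by -0.33 ± 0.12 (0.0408). Gria4 was the 1 gene of 36 whose GF and Abx libraries did not overlap, which held for 5.5% of all genes. With upper-quartile scaling all calls moved from 2127 higher and 1869 lower to 1722 higher and 2474 lower, and those of the 36 genes from 3 and 3 to 3 and 5.

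Dlg1 was at 192, 249 and 276 CPM (lowest, median, highest) in GF saline against 176, 201 and 218 in Abx saline. Of the GF libraries, 4 exceeded all Abx libraries and replicates 2 and 5 did not. Camk2a was at 999.6, 1662 and 1974 CPM in GF saline against 1681, 1917 and 2454 in Abx saline, with 4 GF libraries below the Abx range. Its call was lost when any one of 8 of the 12 libraries was left out, and that of Gria2 when any one of 5 was.

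Grin2b did not pass against Abx saline (0.35 ± 0.30, adjusted p = 0.416, edgeR). Replicate 6 of Abx saline had 223 CPM of Grin2b, against 36.4 to 69.5 in the other 5. Without it the difference was 1.02 (adjusted p = 0.000981, edgeR).

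The number of calls rose when either unusual GF library was left out. Without replicate 1, 14 of the 36 genes passed against H2O saline and 13 against Abx saline, and without replicate 5, 14 and 11. With both left out, 13 (7 higher, 6 lower) and 10 (6 higher, 4 lower) passed, and the genes added against H2O saline were the kainate subunit Grik2 at 0.36, Dlg1 at 0.21 and Dlg2 at 0.27. Calls over all 14607 genes rose as well, from 4813 to 5607 against H2O saline and from 3996 to 4830 against Abx saline without replicate 1, to 5048 and 4330 without replicate 5, and to 5676 and 4937 without both. The genes called against H2O saline with all libraries also passed without both, with Grin2b at 1.14, Grin3a at 0.82, Grin1 at -0.28, Grin2c at -0.56, Grik5 at -0.36, Grid1 at -0.28, Dlg4 at -0.30 and Camk2b at -0.32. That removal was chosen after the values had been seen.

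The 4 genes called in the same direction against both saline groups, Gria2, Gria4, Grin2c and Grik5, are shown with the 250 bases upstream of their start in RefSeq (GRCm38.p6), because these genes of the set were called against each of the conventional saline groups. The direction of Gria2 holds only without the length and GC offset. With that offset Grik5 lost both calls and Grin2c its call against Abx saline, while Gria4 kept both. All 4 lie on the minus strand and are written 5′ to 3′ on that strand, with capitals marking the GC box GGGCGG, a binding motif of SP1-family factors.
Gria2 upstream (chr3:80802836-80803085): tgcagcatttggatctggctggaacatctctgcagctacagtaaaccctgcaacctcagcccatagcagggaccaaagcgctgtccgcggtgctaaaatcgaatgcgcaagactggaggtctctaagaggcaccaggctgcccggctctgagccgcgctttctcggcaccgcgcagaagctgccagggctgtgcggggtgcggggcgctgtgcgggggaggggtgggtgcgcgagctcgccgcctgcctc
Gria4 upstream (chr9:4796235-4796484): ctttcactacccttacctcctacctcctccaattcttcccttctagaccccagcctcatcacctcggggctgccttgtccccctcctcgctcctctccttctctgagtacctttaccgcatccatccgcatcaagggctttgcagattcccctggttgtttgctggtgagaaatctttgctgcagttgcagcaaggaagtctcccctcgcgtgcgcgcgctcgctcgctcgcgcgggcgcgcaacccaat
Grin2c upstream (chr11:115267244-115267493): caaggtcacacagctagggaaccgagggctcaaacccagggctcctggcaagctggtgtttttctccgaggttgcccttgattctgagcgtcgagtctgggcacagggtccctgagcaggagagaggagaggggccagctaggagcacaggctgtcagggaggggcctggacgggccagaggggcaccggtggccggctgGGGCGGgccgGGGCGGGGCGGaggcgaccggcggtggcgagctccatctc
Grik5 upstream (chr7:25072370-25072619): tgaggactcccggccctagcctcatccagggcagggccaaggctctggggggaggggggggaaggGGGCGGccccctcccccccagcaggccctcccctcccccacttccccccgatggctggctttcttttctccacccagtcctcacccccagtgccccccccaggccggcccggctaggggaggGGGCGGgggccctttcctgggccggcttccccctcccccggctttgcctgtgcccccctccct
Searched on both strands (GGGCGG or CCGCCC), the GC box occurred 0 times in the windows of Gria2 and Gria4, 3 times in that of Grin2c, where matches overlap, and 2 times in that of Grik5. It is present in 32.7% of the 32851 RefSeq windows of this length. The cAMP response element TGACGTCA (1.55% of windows) and the NRF-1 motif (0.782%) had no match in the 4 windows. GC content was 64.8% upstream of Gria2, 58.8% for Gria4, 68.8% for Grin2c and 75.2% for Grik5, against a median of 52.4% over all windows. A match is a string of letters and not a measured binding site, and nothing was tested here between these letters and the direction of a difference. By the RefSeq gene coordinates, the spans of Gria2 and Grik5 reach past the whole window and that of Grin2c ends inside it. These 3 windows may thus lie downstream of another start, and only the span of Gria4 ends at its window. The bases that follow the Grik5 window matched no GENCODE M21 transcript of that gene. A match was found for Gria2, Gria4 and Grin2c.

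Transcript composition moved with the germ-free difference. The longest coding transcripts of the 36 genes had 36.8% GC (Gria2) to 65.0% (Grin2d). Across the 36 genes, Spearman's correlation between GC content and the log2 fold change of GF against H2O saline was -0.57, and it was -0.51 across the 14469 tested genes with a known length. Genes are not independent replicates, and these correlations describe 1 set of libraries. For transcript length it was 0.44 in the 36 genes and 0.34 in all genes. Among the 18 genes with the lower GC content, 14 were above 0, 4 were called higher and 1 lower, and their median was 0.22. The 18 with higher GC content had 6 above 0, 0 called higher and 5 lower, and a median of -0.15.

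All genes showed the same gradient. In the 3618 genes of lowest GC content (up to 45.6%), 43.1% of genes were called higher and 1.91% lower, with a median of 0.25 beside 0.22 for the 10 genes of the set there. In the 3617 of highest GC content (from 55.1%), 2.88% were higher and 33.3% lower, with a median of -0.17 beside -0.21 for the 11 genes of the set there.

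A fit with an offset for length and GC content, which removes each library's trend with both, called 7 of the 36 genes in GF against H2O saline, beside 2476 of 14607 genes in place of 4813. Gria4 (0.27), Grin2b (0.67), Grin3a (0.63), Grin2c (-0.37), Grid1 (-0.30) and Dlg4 (-0.44) kept their direction and call. Grin1 (-0.07), Grik5 (-0.11) and Camk2b (-0.22) no longer passed. Gria2 turned to -0.19 (adjusted p = 0.0978, edgeR), and Grik2, at 37.9% GC, turned from 0.24 to -0.27 (adjusted p = 0.0441, edgeR). Against Abx saline, where 2157 of 14607 genes passed in place of 3996, the offset left Gria4 (0.39, adjusted p = 0.00255, edgeR) with Grid1 (-0.21) and Dlg4 (-0.27), while Gria2 turned to -0.19 (adjusted p = 0.118, edgeR). The direction of Gria2 in GF saline thus differs between these fits, and the source of the trend was not tested.

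**Figure D4:**
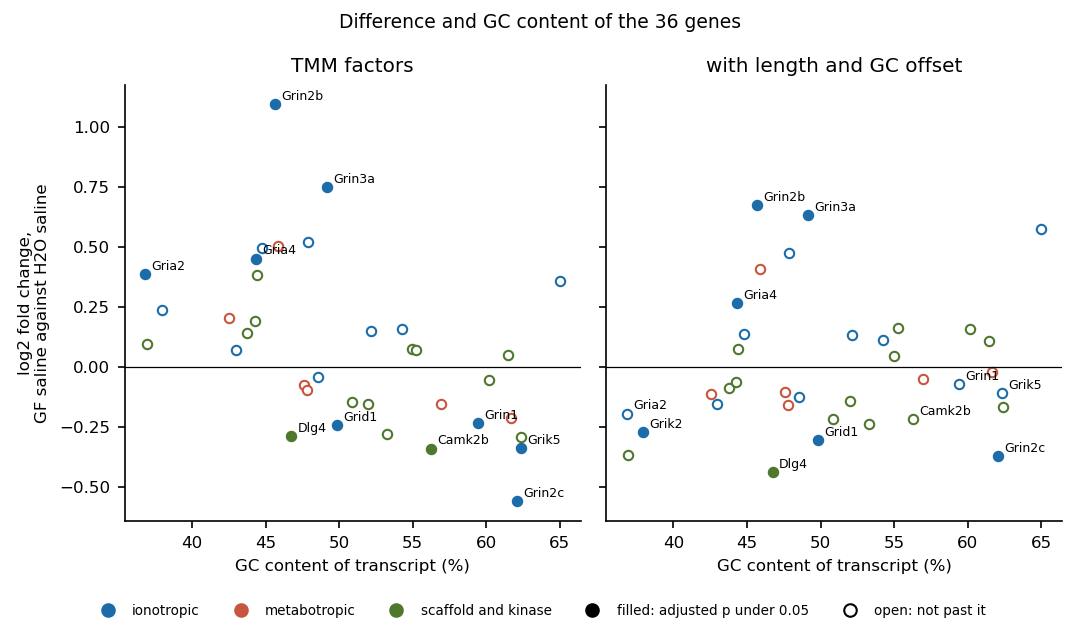
Log2 fold change of the 36 genes in GF against H2O saline by the GC content of the transcript in percent, with TMM factors (left) and with an added length and GC offset (right), coloured by class. Spearman's correlation with GC content is -0.57 on the left, and Gria2 moves from 0.39 to -0.19.

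Other cell markers moved with these comparisons. The 5 endothelial markers summed to 89.9 to 159 CPM in GF saline and did not overlap the 164 to 188 of H2O saline, while Abx saline held 132 to 174. Cldn5 (-0.85), Kdr (-0.80), Tek (-0.41) and Pecam1 (-0.29) fell against H2O saline and Flt1 (-0.18) did not pass. The 7 hypothalamic markers summed to 12.6 to 109 CPM in GF saline, the 109 being replicate 5, and 11.5 to 51.2 in H2O saline. Of these, Crh (1.59) and Gal (2.68) passed as higher, with 5 and 2 of the 6 GF libraries above every H2O library. Levels of Gal were low, at 4.18 ± 7.94 CPM (mean ± SD) in GF saline and 0.53 ± 0.27 in H2O saline. Oxt (1.73) and Trh (0.47) did not pass. Ppp1r1b fell by 0.46 ± 0.17 on the log2 scale in GF against H2O saline (adjusted p = 0.0358, edgeR), and the astrocyte markers summed to 452 to 635 CPM in GF saline, 461 to 515 in H2O saline and 426 to 530.4 in Abx saline. Slc17a7, the vesicular glutamate transporter of cortical neurons, differed by -2.05 ± 1.0 (adjusted p = 0.113, edgeR) against H2O saline. Oligodendrocyte markers summed to 3559 to 10353 CPM in GF saline against 5609 to 6504 in H2O saline. With the cortical marker level as a covariate, 13 genes of the set passed against H2O saline (8 higher, 5 lower) and 5 against Abx saline, beside 4060 and 2694 of 14607 genes. In that fit Gria3 (0.32), Grin2a (0.74), Grik3 (0.32) and Homer2 (0.85) were added against H2O saline and Grin1 was lost, while against Abx saline Gria3 (0.37) was added and Camk2a and Dlg1 were lost. The part of the endothelial, hypothalamic, medium spiny neuron, astrocyte and oligodendrocyte levels in the differences was not tested.

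The cortical marker level itself went with several of the 36 genes. Its slope, a result chosen after the data had been seen, is the log2 change in a gene per unit of mean log2 CPM of the 8 cortical markers, fitted beside the 6 group means. Of the 36 genes, 9 passed (25.0%), beside 12% of all genes (7.47% positive and 4.51% negative). Positive slopes, 8 in all, were those of Grm2 (0.25 ± 0.05), a group II autoreceptor, Homer2 (0.21 ± 0.04), Dlgap1 (0.20 ± 0.03), Gria3 (0.13 ± 0.02), Shank1 (0.12 ± 0.04), Grik3 (0.08 ± 0.02), Camk2a (0.08 ± 0.02) and Dlg3 (0.06 ± 0.02). Grin2d, an NMDA subunit found mainly in interneurons and in development, had the negative one (-0.14 ± 0.03).

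Dlgap1 was at 488 CPM in the library with the highest cortical level, Abx saline replicate 5, and at 359.6 in the next, H2O morphine replicate 4. The remaining 31 libraries ran from 116 to 344 CPM. Leaving out 1 library gave 7 to 12 called slopes in the set, the 7 being without Abx saline replicate 5, and 1308 to 1991 over all 14607 genes. In the 22 libraries of conventional mice alone, 13 slopes of the set passed, beside 2276 of all 14607 genes. Among the 13 were Dlgap1 at 0.23, Homer2 at 0.27 and Grm2 at 0.33. Of the 10 genes called in GF against H2O saline, none had a called slope.

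**Figure D5:**
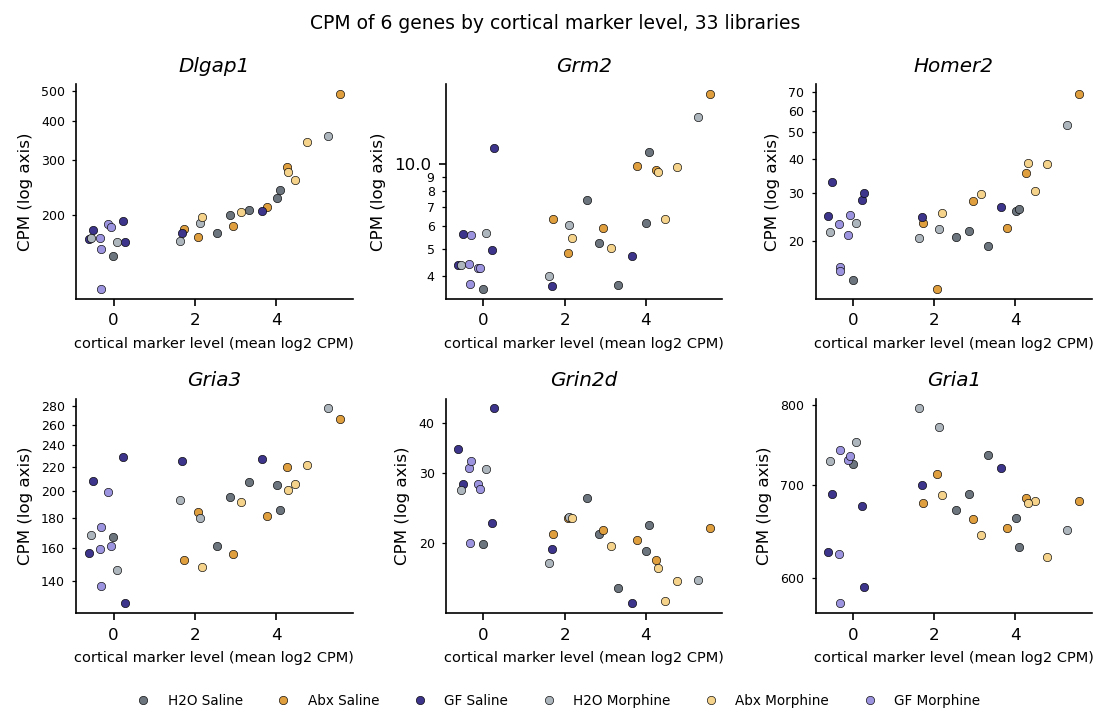
CPM of 6 genes (log axis) by the cortical marker level, the mean log2 CPM of 8 markers, 1 point for each of 33 libraries, coloured by group. Dlgap1, Grm2, Homer2 and Gria3 are high in the libraries with the highest marker level and Grin2d is low there, while the slope of Gria1 (-0.01) did not pass.

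Antibiotic treatment was examined in saline mice, Abx against H2O. None of the 36 genes passed by edgeR or DESeq2, beside 0.116% of all genes by edgeR (0.0616% higher and 0.0548% lower). Unadjusted p was under 0.05 for 4 of the 36, beside 1760 of all 14607 genes. These 4 were Grik3 at 0.31 ± 0.11, Grm3 at -0.40 ± 0.14, Grin2b at 0.75 ± 0.31 and Homer2 at 0.58 ± 0.26, with adjusted p of 0.244, 0.244, 0.321 and 0.363 (edgeR). Without Abx replicate 6, Grin2b was at 0.08. The groups overlapped for all 36 genes, and did not for 1.68% of all genes.

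In morphine-treated mice, Abx against H2O gave 2 of 36 genes past the threshold, 5.56%, beside 10.3% of all genes (4.57% higher and 5.76% lower). Grm3, the group II receptor mGlu3, which occurs on neurons and astrocytes, stood at 61.1, 63.6, 65.3, 73.8 and 73.8 CPM in Abx morphine. In H2O morphine it was at 95.8, 104, 105, 118 and 139 CPM. All 5 Abx libraries were below all 5 H2O libraries. The difference was -0.74 ± 0.16 (adjusted p = 0.00208, edgeR), and it held in all 8 other settings and with each of the 10 libraries left out, from -0.81 to -0.65.

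In Abx saline Grm3 was at 67.1, 85.9 and 95.1 CPM (lowest, median, highest) against 91.0, 107 and 130.2 in H2O saline, with 4 of 6 Abx libraries below the H2O range, and the test did not pass. GF libraries held 62.5 to 139 CPM in saline and 76.3, 82.9, 86.2, 107 and 119.97 in morphine. Morphine against saline in Abx mice was -0.29 ± 0.15 for Grm3 (adjusted p = 0.269, edgeR). The difference between the Abx and H2O morphine responses was at most 0.87 in size for any of the 36 genes, and none passed. Marker levels beside it were 446 to 515 CPM for the 5 astrocyte markers in Abx morphine and 495 to 509 in H2O morphine. Of the astrocyte markers, Aqp4 was at 43.4 to 60.8 CPM in Abx morphine and 63.6 to 75.8 in H2O morphine, without overlap. Gja1 overlapped, at 142 to 167 and 158 to 184 CPM. The 5 microglial markers summed to 235 to 274 and 304 to 344 CPM, and the 5 endothelial markers to 132 to 150 and 153 to 163. The part of these markers in the difference was not tested.

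Gria4 was the other call, at 59.6, 60.1, 61.0, 64.1 and 65.0 CPM in Abx morphine and 63.5, 65.2, 77.4, 81.9 and 84.5 in H2O morphine. The groups overlapped, with 3 Abx libraries below all H2O libraries. It fell by 0.26 ± 0.09 on the log2 scale (adjusted p = 0.0480, edgeR), and this call was lost when any one of 8 of the 10 libraries was left out. Grik5 did not pass (0.23 ± 0.08, adjusted p = 0.0809, edgeR), although its 353 to 411 CPM in Abx morphine lay above the 290.4 to 349 of H2O morphine. With Grm3 it made 2 of 36 genes without overlap, which held for 13.2% of all genes.

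Between GF and H2O morphine mice, 1 of 36 genes passed, 2.78%, beside 5.86% of all genes (3.20% higher and 2.66% lower). That was Grid1, at 73.8, 91.8, 109, 120.11 and 120.15 CPM in GF morphine and 114, 123, 128, 135 and 146 in H2O morphine. Of the 5 GF libraries, 3 lay below all H2O libraries and the others within their range. The difference was -0.33 ± 0.09 (adjusted p = 0.0338, edgeR). The call was lost without any one of H2O morphine replicates 2, 3 and 5 or GF morphine replicates 3 and 5. Cortical markers in GF morphine were at 9.45 to 13.5 CPM against 9.19 to 1224 in H2O morphine, and with their level as a covariate Grid1 was at -0.35 (adjusted p = 0.0531, edgeR) and no gene of the set passed. Gria4 (0.15), Grin2c (-0.35) and Grik5 (-0.21) did not pass here. Nor did Grin2b, at 87.1 ± 24.5 CPM (mean ± SD) in GF morphine and 98.8 ± 13.1 in H2O morphine. No gene of the set was without overlap in this comparison, against 5.68% of all genes.

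Repeated morphine was then compared with saline within each microbiome group. In H2O mice none of the 36 genes passed by edgeR, beside 0% of all genes. Unadjusted p was under 0.05 for 7 of the 36, beside 2222 of all 14607 genes. None passed by DESeq2 either, which called 332 of 12341 genes. Of the 36, 26 were above 0. Long genes in general were higher here, since the 3616 genes with the longest transcripts had a median of 0.12 beside 0.11 for the 25 genes of the set among them. The groups did not overlap for 3 genes of the set, Grin2a, Grin2b and Grik3, as for 5.81% of all genes.

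Grin2b was at 86.3, 87.0, 97.7, 105 and 117 CPM in H2O morphine, all above the highest H2O saline library at 67.8 CPM. The difference was 1.07 ± 0.32 (adjusted p = 0.115, edgeR). Grin2a, the NMDA subunit that prevails in mature synapses, was at 17.7, 18.5, 24.1, 24.3 and 25.1 CPM against a highest saline value of 14.96, a difference of 0.78 ± 0.25 (adjusted p = 0.135, edgeR). For Grik3, a low-affinity kainate subunit, the 5 libraries held 180.4 to 240.5 CPM against 144 to 170.5 in saline, or 0.36 ± 0.12 (adjusted p = 0.141, edgeR). A fit of the H2O groups alone, which does not share its spread with the other groups, called Grin2b (adjusted p = 0.00207, edgeR), Grin2a (0.00406) and Grik3 (0.0109) higher and Camk2b (-0.23, 0.0475) lower, beside 613 genes higher and 333 lower of all 14607.

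In Abx mice no gene of the set passed by edgeR or DESeq2, beside 5.42% of all genes by edgeR (2.22% higher and 3.20% lower). Unadjusted p was under 0.05 for 2 genes of the set, beside 3002 of all 14607 genes. The 2 were Grin2a at 0.57 ± 0.24 (adjusted p = 0.169, edgeR) and Grm4 at -0.31 ± 0.15 (0.241). Without Abx saline replicate 6, the library with 223 CPM of Grin2b, both Grin2a (0.86, adjusted p = 0.0257, edgeR) and Grin2b (0.87, 0.0188) passed. The Abx groups overlapped for all 36 genes, and did not for 6.29% of all genes. In GF mice no gene of the set passed by edgeR or DESeq2, beside 0.00685% of all genes by edgeR. Unadjusted p was under 0.05 for 0 of the 36, beside 961 of all 14607 genes. The values ran from -0.47 (Homer2) to 0.07 (Grin2d), and 25 of the 36 were below 0. The 3616 longest genes had a median of -0.08 beside -0.05 for the 25 of the set. The GF groups overlapped for all 36 genes, and did not for 0.281% of all genes.

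The morphine responses were compared directly by an interaction term. For GF minus H2O mice no gene of the set passed by edgeR, beside 0% of all genes, or by DESeq2, which gave 3 of them no adjusted p and called 234 of 9792 genes. Unadjusted p by edgeR was under 0.05 for 5 of the set, beside 2325 of all 14607 genes. The 5 were Grin2b at -1.28 ± 0.46 (adjusted p = 0.174, edgeR), Grin2a at -1.05 ± 0.36 (0.161), Homer2 at -0.88 ± 0.39 (0.267), Grik3 at -0.54 ± 0.16 (0.131) and Gria4 at -0.30 ± 0.12 (0.217). For Abx minus H2O mice none passed by edgeR or DESeq2, beside 0.110% of all genes by edgeR (0.0479% higher and 0.0616% lower). Unadjusted p was under 0.05 for 1 gene of the set, Grin3a at -0.70 ± 0.29 (adjusted p = 0.529, edgeR), beside 1154 of all 14607 genes. In each interaction 28 of the 36 values were below 0, and both contain the same H2O libraries. Among the 3616 longest genes the median was -0.21 for GF minus H2O, beside -0.17 for the 25 of the set, and -0.05 for Abx minus H2O, beside -0.07.

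Subunit ratios within a library describe the balance of receptor types as CPM of one gene over another, on the log2 scale. Grin2a to Grin2b was -1.86 ± 0.28 (SD, n = 6) in H2O saline, -2.02 ± 0.41 in Abx saline and -2.51 ± 0.17 in GF saline. It was -2.18 ± 0.11 (SD, n = 5) in H2O morphine, -1.86 ± 0.30 in Abx morphine and -2.64 ± 0.50 in GF morphine. Gria1 to Gria2 was 0.43 ± 0.11 in H2O saline and 0.03 ± 0.28 in GF saline, where it ran from -0.29 to 0.48. These values were not tested, and they carry no offset for length and GC content. With that offset the difference of Gria2 in GF against H2O saline turned from 0.39 to -0.19.

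Other genes of the glutamate synapse were taken from a list of 61 transporters, auxiliary subunits, adhesion molecules and adaptors, of which 60 were tested. Against H2O saline, 8 were higher and 10 lower in GF saline, a share near the 32.9% of all genes. The higher ones included Camk2d (0.69), another CaMKII subunit, and the vesicular transporter Slc17a8 (0.44). The lower ones included Cnih2 (-0.45) and Cacng8 (-0.38), auxiliary subunits of AMPA receptors, and the scaffold Dlgap3 (-0.43). Against Abx saline 9 were higher and 9 lower, beside 27.4% of all genes. Between Abx and H2O morphine mice 5 of the 60 (8.33%) were lower and 0 higher, beside 10.3% of all genes, among them the astrocytic glutamate transporter Slc1a3 (-0.20).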

How the data were processed

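The authors deposited a table of gene counts for 33 libraries of polyA cDNA made with a SMARTer kit, per the labels' protocols. Per the submitters' processing notes the tools were FastQC, STAR 2.4.0 and edgeR. Which build, annotation, strand setting and counting program lay behind the counts was not given in the sources used here. A group of 5 tally rows in the table (19.3% to 35.4% of tallied reads) was left out, and the authors' normalised table was not used. Genes were filtered with filterByExpr (minimum count 10), scaled by TMM and tested with edgeR 4.0.16 (quasi-likelihood, 6 group means, 27 residual degrees of freedom) under R 4.3.3, with Benjamini-Hochberg adjustment over 14607 genes. DESeq2 1.42.0 served as an alternative, and the scripts were tested on simulated data. Gene lengths and GC contents are those of the longest coding transcript in GENCODE M21 (GRCm38), found for 98.2% of gene entries. No pairing by replicate number was seen (mean correlation of same-numbered deviations -0.00069, from -0.473 to 0.462 over 66 pairs). A shared cage or batch was not tested. No libraries of a group differed by read sampling alone (chi-square per degree of freedom 3.19 to 38.6 over 75 pairs). This check cannot tell whether libraries came from separate mice. The 36 genes and all lists were chosen with earlier results of these data known. Library values are given for genes called in any comparison (per class and comparison at most the 4 higher and 4 lower with the largest change), and of the other synapse genes at most 5 in each direction are named. Grm5, Dlgap1, the markers Aqp4 and Gja1 and, for morphine in H2O mice, Grin2a, Grin2b and Grik3 fall outside that rule. They were chosen after their values were seen.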

Additional observations from a re-analysis of the deposited data

Results flagged for a closer look

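In 78 checks of a gene within a group of libraries, 9 had 1 library far from the others, where chance flags about 1 in 20. Gria2 was at 427 CPM in GF morphine replicate 5 against 618 to 696 in the others. Gria4 was at 60.4 CPM in H2O saline replicate 4 against 66.1 to 68.1. Grin1 was at 350.2 CPM in GF saline replicate 1 against 269 to 295. Grin2b was at 223 CPM in Abx saline replicate 6 against 36.4 to 69.5. Grin3a was at 90.3 CPM in Abx saline replicate 5 against 39.3 to 57.6, and at 42.5 in Abx morphine replicate 2 against 54.4 to 57.0. Dlg1 was at 243 CPM in H2O saline replicate 5 against 207 to 217. Camk2a was at 2454 CPM in Abx saline replicate 5 against 1681 to 1934. Camk2b was at 1449.9 CPM in Abx morphine replicate 2 against 1268 to 1318.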

How the results depend on the processing

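In GF against H2O saline the 10 calls became 7 to 13 under the other settings and 9 to 14 with 1 library left out. Over all genes these fits made 2476 to 5676 and 3600 to 5607 calls. In GF against Abx saline the 6 calls became 3 with the length and GC offset, 3 when only the groups compared were fitted and 10 without GF saline replicates 1 and 5, and 4 to 13 with 1 library left out. All-gene calls in these fits were 2157, 2232 and 4937, and 2878 to 4830 with 1 library left out. With the length and GC offset Gria2 reversed to -0.19 against H2O saline and -0.19 against Abx saline, and Grik2 to -0.27 against H2O saline. The H2O morphine response went from 0 to 4 calls when only its groups were fitted, where all genes went from 0 to 946. It stayed at 0 to 0 with 1 library left out. The Abx response had 0 to 2. GF against H2O morphine went from 1 to 2 with upper-quartile factors, 2 with the replicate block, 3 with DESeq2, 0 with the cortical covariate and 0 with only its groups (0 to 3 with 1 library left out). Over all genes the 856 calls became 918, 1021, 1199, 363 and 313 in these 5 settings. Abx against H2O morphine went from 2 to 1 with RLE factors, 1 with upper-quartile factors, 1 without the filter, 1 with the replicate block, 1 with the cortical covariate and 5 with only its groups (1 to 2 with 1 library left out). Here the 1508 calls over all genes became 1511, 1447, 1323, 1303, 1641 and 2380. Slopes had 7 to 12 calls with 1 library left out, beside 1308 to 1991 over all genes. With the replicate block, although no pairing by number was seen, 10 calls were made against H2O saline and 6 against Abx saline. Against H2O saline it lost Gria2 (adjusted p = 0.109, edgeR) and added Shank3 (-0.45). That fit called 4142 and 3767 of all genes. The cause of these shifts was not tested. The slope fits and the removal of both GF saline replicates were chosen after seeing the data. Shallower GF libraries limit the genes with the lowest counts most.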

Other observations

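The cortical marker level also went with other genes of the glutamate synapse, of which 17 of 60 had a called slope (14 positive, 3 negative) beside 12% of all genes. The neuronal pentraxins, proteins that cluster AMPA receptors, were among the positive ones, with Nptx1 at 0.45, the pentraxin receptor Nptxr at 0.32 and Nptx2 at 0.15. Positive slopes were also found for the AMPA receptor auxiliary genes Cnih3 (0.31) and Shisa6 (0.19). The negative slopes included those of Slc17a8 (-0.12) and Begain (-0.05).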
